A study of Mus musculus with 6 samples.

Results

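Spink10, Ang, A2m and Ptprg are 4 genes whose probe sets gave some of the largest increases in the hippocampus of the transgenic mouse line L26, outside the known markers of single cell types. Their members are all probe sets of the array that the platform annotation assigns to exactly 1 of these symbols, 9 of the 45037 probe sets analysed, with 1 for Spink10, 3 for Ang, 1 for A2m and 4 for Ptprg. The genes were picked for the L26 against wild type contrast itself, so their values in that contrast are given as a description and no test is read from them. RNA came from the hippocampus of adult male mice on a C57B6xCBA background, either wild type littermates or mice homozygous for the daDREAM transgene (line L26). Each group had 3 samples, with 1 Affymetrix mouse genome array per sample and no stimulus named. Whether a sample came from a single animal or a pool is not given. daDREAM is a dominant active form of DREAM, the calcium-binding transcriptional repressor encoded by Kcnip3. L26 is 1 of 2 transgenic lines named in the labels, and the other was not analysed here. The promoter that drives the transgene is not given in the sources used here. The series text calls the hybridizations of each group independent biological replicates.

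The 4 genes encode secreted or cell surface proteins of different kinds. Spink10 belongs to the Kazal family of small serine protease inhibitors. Angiogenin, the product of Ang, is a secreted ribonuclease of the RNase A family that stimulates blood vessel growth and cleaves transfer RNA in stressed cells. It is bound in the cytosol by the ribonuclease inhibitor (Rnh1), and plexin-B2 (Plxnb2) has been described as its receptor. A2m encodes alpha-2-macroglobulin, a large secreted protein that traps proteases of many classes and is cleared with them through the receptor Lrp1. Ptprg encodes a receptor tyrosine phosphatase with a carbonic anhydrase-like outer domain that binds contactins, adhesion proteins of neurons, and Ptprz1 is its nearest relative.

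Values are log2 expression values, so a difference of 1 is a doubling. The 6 array medians lay between 7.27 and 7.32, and correlations across probe sets were 0.9971 to 0.9979 within groups and 0.9944 to 0.9958 between groups. All 17 measured markers of hippocampal neurons lay above the lower quartile of the arrays, and their mean per array was 10.72 to 10.75 in wild type and 10.84 to 10.85 in L26. In the limma comparison of 18193 genes, 1 probe set each, 945 genes (5.19%) passed an adjusted p of 0.05, 478 of them higher and 467 lower in L26. Over all 45037 probe sets 3.92% passed, 1.98% higher and 1.94% lower. Of the genes, 13.0% had all L26 values above all wild type values and 11.0% had all below. With arrays centred on their medians the split was 382 higher and 690 lower.

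Of the 9 probe sets, 7 had all 3 L26 values above all 3 wild type values and 2 overlapped. Over all 45037 probe sets the share with L26 wholly above wild type was 12.5%, a figure from which nothing can be read here because the genes were chosen on this contrast. By the difference of the leading probe set, that with the highest mean over all 6 arrays, Spink10 ranked 3, Ang 5, Ptprg 10 and A2m 12 among 18193 genes. These ranks restate how the genes were picked. For Ptprg the leading probe set, 1429691_at, also owes its place to its L26 values. In wild type it averaged 9.43, below 1434360_s_at (9.74) and 1456070_at (9.57). On 1434360_s_at, the brightest Ptprg probe set in wild type, the difference was 0.28. Its suffix marks probes shared by more than 1 transcript, and the part of other transcripts in its level was not tested. The 2 probe sets that overlapped belong to Ang and Ptprg, so within both of these genes the probe sets did not move alike. Spink10 and A2m have 1 probe set each, and no second probe set shows whether their values hold elsewhere on the transcript. The annotation gives a RefSeq transcript of the gene for 2 of the 9 probe sets, Ang 1450717_at (-0.03) and Ptprg 1450122_at (0.32). It gives another sequence for 4, those of Spink10 and A2m and Ptprg 1429691_at and 1456070_at. For the other 3 it names none. Which transcripts these 7 probe sets detect was not tested.

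**Figure D1:**
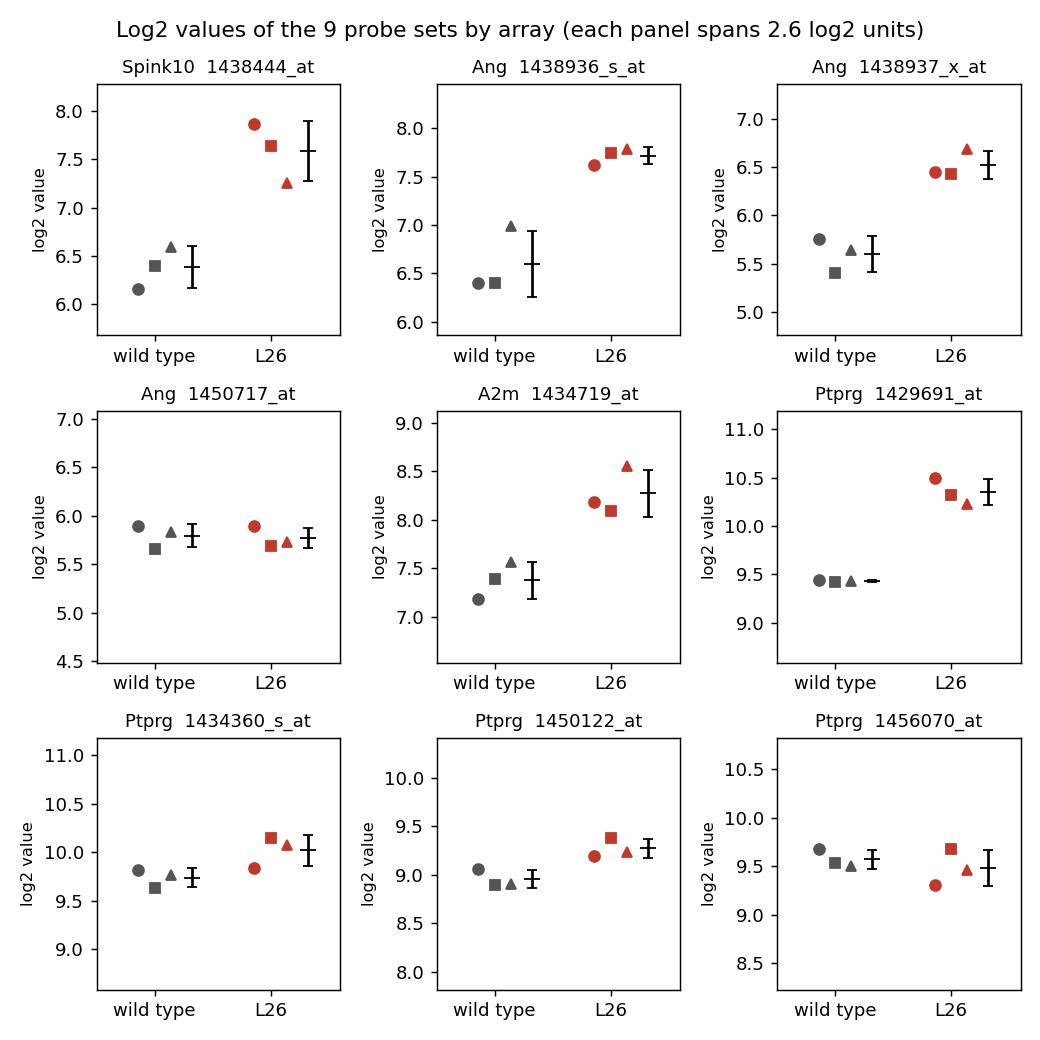
Each panel plots the log2 values of 1 probe set in 3 wild type (grey) and 3 L26 arrays (red), with circles, squares and triangles for replicates 1, 2 and 3 and a black bar for the mean and SD; every panel spans the same height. L26 lies wholly above wild type in 7 panels, while Ang 1450717_at and Ptprg 1456070_at overlap.

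Spink10 was low in wild type and clearly brighter in L26. Probe set 1438444_at read 6.16, 6.40 and 6.59 in the wild type arrays and 7.86, 7.64 and 7.25 in the L26 arrays. The lowest L26 value lay 0.66 above the highest wild type value. The means were 6.38 ± 0.22 and 7.58 ± 0.31 (SD, n = 3), a difference of 1.20 (SE 0.15), or 2.3-fold. L26 replicate 3 was the lowest of its group, and without any single array the difference ran from 1.06 to 1.37. Wild type replicate 1, the dimmest of the 6, lay close to the lower quartile of the arrays (5.93 to 5.96), where RMA compresses fold differences.

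For Ang, 2 probe sets read higher in L26 and the groups overlapped on the third. Probe set 1438936_s_at, with a suffix that marks probes shared by more than 1 transcript, read 6.40, 6.40 and 6.99 in wild type and 7.62, 7.74 and 7.79 in L26. The L26 values lay close together, and wild type replicate 3 stood above the rest of its group. The difference was 1.12 (SE 0.14), or 2.17-fold, from 6.60 ± 0.34 to 7.72 ± 0.09 (SD, n = 3). Probe set 1438937_x_at, whose suffix marks probes that may cross-hybridize, read 5.76, 5.40 and 5.64 in wild type and 6.45, 6.43 and 6.69 in L26, a difference of 0.92 (SE 0.10). All its wild type values lay below the lower quartile of the arrays. On both of these the groups were separate, by 0.63 and 0.67.

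The third Ang probe set did not follow. It is 1450717_at, the only Ang probe set whose annotated sequence is a RefSeq transcript of the gene. It read 5.90, 5.66 and 5.83 in wild type and 5.89, 5.69 and 5.73 in L26. The groups overlapped throughout, with means of 5.80 ± 0.12 and 5.77 ± 0.11 (SD, n = 3) and a difference of -0.03 (SE 0.08). These values lie below the lower quartile of the arrays, as do those of 1438937_x_at in wild type, and differences of such dim probe sets may be understated. The annotation names no sequence for the other Ang probe sets, and which transcripts they detect was not tested.

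Ang shares its annotated start with Rnase4, the gene of another secreted ribonuclease, and the promoter is shown because 1 stretch of DNA serves both genes. In the RefSeq tables of assembly GRCm38.p6 the window from 250 bases before to 50 bases after the start is identical for the 2 genes and lies at chr14:51090827-51091126 on the + strand. Capitals mark GTCA, the core of the DRE element that DREAM binds, or its reverse complement TGAC.
Ang and Rnase4: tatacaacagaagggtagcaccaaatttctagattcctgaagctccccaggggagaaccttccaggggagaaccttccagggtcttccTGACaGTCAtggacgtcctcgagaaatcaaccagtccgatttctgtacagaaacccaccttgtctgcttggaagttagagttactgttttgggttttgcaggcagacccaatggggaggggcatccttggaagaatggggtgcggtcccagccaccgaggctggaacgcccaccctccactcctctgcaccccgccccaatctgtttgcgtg
The window holds 2 such matches, 1 on each strand and 1 base apart. Of 32817 promoter windows of the same length in the table, 85.2% hold at least 1 match on either strand and 59.6% hold 2 or more, so the match is a description only. Rnase4 itself, on probe set 1422603_at, read 9.34, 9.44 and 9.65 in wild type and 9.54, 9.32 and 9.47 in L26. Those groups overlapped, and the difference of -0.03 (SE 0.09, limma adjusted p = 0.884) did not pass. Rnase4 has a second annotated start 4.92 kb downstream, and the array values do not tell the starts apart.

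A2m read higher in every L26 array. Its probe set 1434719_at had 7.18, 7.39 and 7.56 in wild type and 8.18, 8.09 and 8.55 in L26. The gap between the groups was 0.53, wider than the range within either group. The means were 7.38 ± 0.19 and 8.27 ± 0.24 (SD, n = 3), a difference of 0.90 (SE 0.13), or 1.86-fold. L26 replicate 3 was the highest array, and leaving out single arrays gave differences from 0.76 to 0.99.

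Ptprg had a graded set of differences over its 4 probe sets, from a near doubling to no increase. Probe set 1429691_at read 9.44, 9.42 and 9.43 in wild type and 10.50, 10.32 and 10.23 in L26. The wild type arrays were almost identical here (SD 0.01), and the groups were 0.79 apart. The difference was 0.92 (SE 0.07), or 1.89-fold. Probe set 1450122_at, annotated with a RefSeq transcript of Ptprg, read 9.06, 8.90 and 8.91 in wild type and 9.20, 9.38 and 9.24 in L26, a difference of 0.32 (SE 0.07). For 1434360_s_at the values were 9.82, 9.63 and 9.76 against 9.84, 10.15 and 10.07, a difference of 0.28 (SE 0.09) with only 0.02 between the groups. Those smaller differences amount to 1.25-fold and 1.22-fold.

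The fourth Ptprg probe set, 1456070_at, read 9.68, 9.53 and 9.50 in wild type and 9.31, 9.68 and 9.46 in L26. Its groups overlapped, with a difference of -0.09 (SE 0.09). None of the Ptprg probe sets is dim, since all lie above the arrays' medians. Where on the transcript each probe set lies is not given in the sources used here.

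RefSeq gives Ptprg 2 annotated starts, 636 kb apart on chromosome 14 (GRCm38.p6, + strand), and both windows are shown. The upstream one is chr14:11553303-11553602 and the downstream one chr14:12189693-12189992, with GTCA or TGAC in capitals.
Ptprg upstream: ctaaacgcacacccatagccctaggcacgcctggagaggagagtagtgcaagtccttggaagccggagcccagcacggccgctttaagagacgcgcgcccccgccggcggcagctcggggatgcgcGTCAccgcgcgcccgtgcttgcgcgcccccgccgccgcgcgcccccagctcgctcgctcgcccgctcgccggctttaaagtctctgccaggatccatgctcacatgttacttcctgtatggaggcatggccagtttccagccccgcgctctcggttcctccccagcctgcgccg
Ptprg downstream: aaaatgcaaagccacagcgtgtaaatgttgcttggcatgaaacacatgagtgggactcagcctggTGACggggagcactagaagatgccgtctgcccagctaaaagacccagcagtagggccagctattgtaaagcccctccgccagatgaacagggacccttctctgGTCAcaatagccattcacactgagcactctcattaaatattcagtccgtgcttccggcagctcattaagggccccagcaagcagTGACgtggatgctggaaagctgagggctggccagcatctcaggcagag
The windows differ in composition. The upstream window is 69% G or C with 36 CG pairs, against medians of 52.7% and 7 over all windows, and holds 1 GTCA match. The downstream window is 53.7% G or C with 7 CG pairs and holds 3 matches, as 34.6% of windows do or exceed. Whether either start is used more in L26 was not measured. Nothing in the sources used here links a start to a probe set, and a part of the starts in the probe sets' disagreement was not tested.

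**Figure D2:**
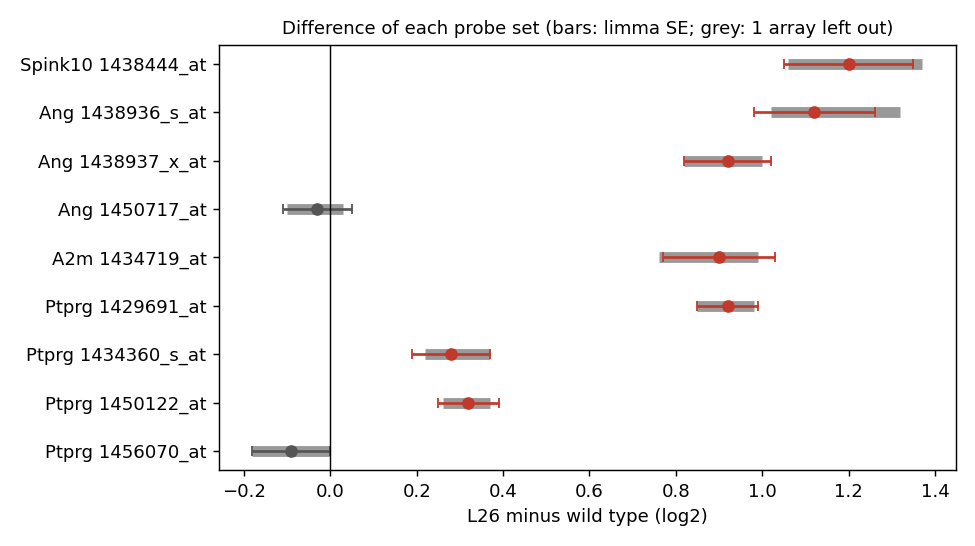
The points give the difference of L26 minus wild type on the log2 scale for each of the 9 probe sets, with the limma SE as thin bars and the range of the differences with 1 array left out in grey; red marks probe sets whose groups do not overlap. Spink10, A2m, Ang 1438936_s_at and 1438937_x_at and Ptprg 1429691_at lie at 0.90 or above, and Ang 1450717_at and Ptprg 1456070_at lie near 0.

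Genes related to these 4 by family, binding partner or pathway were listed by function. Of 128 such genes measured, each counted once, 11 (8.59%) passed, beside 5.19% of all genes. The share of all genes called higher was 2.63%, and the share called lower 2.57%. An unadjusted p under 0.05 was found for 38 of the 128 (29.7%), beside 20.3% of all genes. These shares carry no test. Every list had a median difference between -0.10 and 0.04, beside 0.01 over all genes.

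Among genes with Kazal domains, 0 of 16 measured rose and 1 fell by limma's adjusted p, with 3 at an unadjusted p under 0.05 and a median of -0.01. Spock3, which encodes a testican of the extracellular matrix, fell by 0.49 (SE 0.07, limma adjusted p = 0.00501), from 9.40 to 8.91. Its other probe set had +0.26, and the mean of both did not pass (adjusted p = 0.36). Spink8, the family member best known from hippocampal pyramidal cells, read 9.58, 9.77 and 10.02 in wild type and 9.97, 9.96 and 9.96 in L26, a difference of +0.17 (SE 0.10, limma adjusted p = 0.365). The groups overlapped for Spink8, and no contrast with Spink10 can be read, since Spink10 was picked for its rise.

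For ribonucleases and angiogenin's partners, 0 of 12 measured genes passed with limma and 0 had an unadjusted p under 0.05. Differences ran from -0.12 to 0.19, with a median of 0.03. The other angiogenin genes Ang2, Ang3 and Ang4 had -0.04, -0.03 and +0.07. Rnh1, the inhibitor, had +0.03 (SE 0.06, limma adjusted p = 0.849) and the receptor gene Plxnb2 +0.19 (SE 0.09, limma adjusted p = 0.298). Of the 12, 8 lay below the lower quartile of the arrays, where a difference may be understated.

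In the macroglobulin family and its receptor, 1 of 7 genes rose and none fell, with 1 at an unadjusted p under 0.05 and a median of 0.02. That gene was Cd109, a membrane-anchored relative of A2m, at +0.27 (SE 0.06, limma adjusted p = 0.0457), with -0.07 on its other probe set and an adjusted p of 0.344 for the mean of both. The call was kept when wild type replicate 3 was left out and lost when any other array was (adjusted p from 0.044 to 0.148 over the 6 fits). Lrp1, the clearance receptor, had -0.04 (SE 0.07, limma adjusted p = 0.818), its chaperone gene Lrpap1 +0.02 and the relative Pzp -0.03. None of these 3 passed.

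Among 17 other receptor tyrosine phosphatases 1 rose and none fell, with 7 at an unadjusted p under 0.05 and a median of 0. Ptpru rose by 0.33 (SE 0.06, limma adjusted p = 0.0216), with 0 on its other probe set and an adjusted p of 0.166 for the mean of both. The Ptpru call was kept without wild type replicate 1 or 3 and lost without any other array (adjusted p up to 0.0849). Ptprz1 read 11.54, 11.39 and 11.49 in wild type and 11.49, 11.51 and 11.40 in L26, a difference of -0.01 (SE 0.06, limma adjusted p = 0.965).

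Of 16 contactins and their partners 1 rose and 1 fell, with 5 at an unadjusted p under 0.05 and a median of -0.10. The mean was higher in L26 for 3 of the 16, beside 53.1% of all genes, a description with no test. Cntn6, a contactin that binds Ptprg, read 7.64, 7.79 and 7.69 in wild type and 7.12, 7.31 and 7.30 in L26. All L26 values lay below all wild type values, and Cntn6 fell by 0.46 (SE 0.07, limma adjusted p = 0.00747). This call was kept with every array left out in turn (adjusted p from 0.0128 to 0.0268). The other contactins that bind Ptprg did not pass, among them Cntn3 with -0.18 (SE 0.09, limma adjusted p = 0.309) and Cntn4 with -0.09 (SE 0.08, limma adjusted p = 0.606). Nfasc, a partner of contactins beside the nodes of Ranvier, rose by 0.37 (SE 0.06, limma adjusted p = 0.00824), with 0.03 to 0.24 on its other probe sets. On these arrays the mean of the oligodendrocyte markers was 0.32 higher in L26, and its part in the Nfasc value was not tested.

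Protease inhibitors of other families gave 2 higher and 1 lower of 33 measured, with 12 at an unadjusted p under 0.05 and a median of 0.04. Timp4, a metalloproteinase inhibitor, rose by 0.39 (SE 0.06, limma adjusted p = 0.0111), a call lost without L26 replicate 2 (adjusted p = 0.0505). Serpina3n, a serpin induced in reactive glia, read 8.84, 9.07 and 9.0 in wild type and 9.28, 9.30 and 9.37 in L26. Serpina3n rose by 0.35 (SE 0.07, limma adjusted p = 0.0232), but the call was lost when any 1 L26 array or wild type replicate 3 was left out (adjusted p up to 0.0954). Serpini1, the neuronal serpin neuroserpin, fell by 0.35 (SE 0.05, limma adjusted p = 0.00533), with -0.48 to -0.01 on its other probe sets. The abundant cystatin gene Cst3 had -0.16 (SE 0.05, limma adjusted p = 0.121).

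Genes of the acute phase and of STAT3 signalling, the pathway that induces alpha-2-macroglobulin in rat liver, gave calls in both directions. Of 29 measured, 2 rose, 2 fell and 25 did not pass, with 11 at an unadjusted p under 0.05 and a median of 0.02. Il6st, the shared receptor subunit gp130, rose by 0.31 (SE 0.06, limma adjusted p = 0.023) and Serpina3n is the other that rose. Junb fell by 0.88 (SE 0.10, limma adjusted p = 0.00226) and Cebpb by 0.29 (SE 0.06, limma adjusted p = 0.0277), and Junb is also an immediate early gene of neurons. The Il6st call was kept only without L26 replicate 1, and that of Cebpb only without L26 replicate 3 (adjusted p up to 0.0894 and 0.1 without other arrays). Socs3, a direct STAT3 target, had -0.05 (SE 0.08, limma adjusted p = 0.796) and Gfap, the astrocyte filament gene, -0.09 (SE 0.08, limma adjusted p = 0.601). The other probe sets of Gfap ranged from -1.60 to 0.29.

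**Figure D3:**
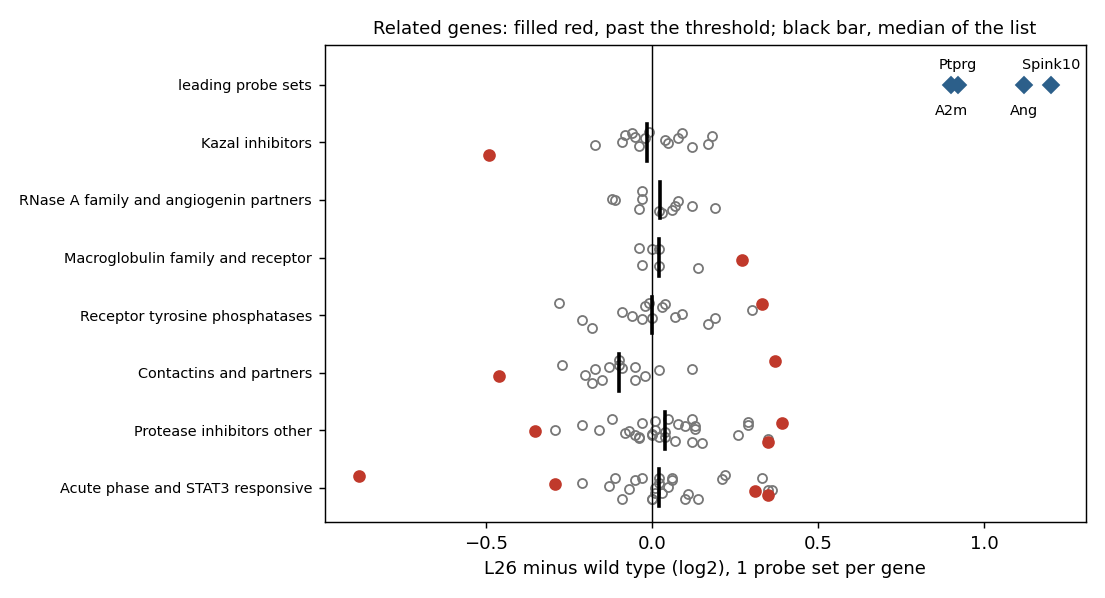
Each circle is the difference of L26 minus wild type on the log2 scale for 1 gene of a related list, filled red where limma's adjusted p was under 0.05, with a black bar at the list's median; blue diamonds give the leading probe sets of the 4 genes. The medians lie between -0.10 and 0.04, and no related gene rises by more than 0.39, while Junb lies at -0.88.

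The genes beside the 4 on their chromosomes were taken as the 5 measured genes on each side in the RefSeq order. Of these 40 neighbours 3 rose and 1 fell, 10% beside 5.19% of all genes, with a median of -0.01 and a range from -0.41 to 0.46. Around Ang, on chromosome 14, which lies in a cluster of ribonuclease genes, 0 of 10 neighbours passed with limma and 0 had an unadjusted p under 0.05. Rnase4 on one side had -0.03 and Rnase6 on the other +0.12 (SE 0.07, limma adjusted p = 0.366).

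Around A2m, on chromosome 6, the direct neighbours were Iqsec3 with -0.01 and the macroglobulin relative Mug1 with 0. Slc6a13, a GABA and taurine transporter gene of the leptomeninges that lies on the Iqsec3 side and is also in the leptomeningeal list of markers, read 7.40, 7.32 and 7.51 in wild type and 7.71, 7.91 and 7.95 in L26. Slc6a13 rose by 0.45 (SE 0.08, limma adjusted p = 0.0138), a call lost without L26 replicate 2 or 3 (adjusted p up to 0.0637). Between Slc6a13 and A2m, neither Slc6a12 (-0.03) nor Iqsec3 passed.

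Beside Spink10, on chromosome 18, the direct neighbours Fbxo38 and 2700046A07Rik had +0.02 and -0.09. Further along, Apcdd1, an inhibitor of Wnt signalling, rose by 0.46 (SE 0.09, limma adjusted p = 0.0224), with its 5 other probe sets between 0.18 and 0.53. The Apcdd1 call was kept only without replicate 1 of either group (adjusted p up to 0.0882 without other arrays).

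Beside Ptprg, Fhit had -0.41 (SE 0.11, limma adjusted p = 0.0682) and did not pass, and 3830406C13Rik, on the other side, fell by 0.27 (SE 0.06, limma adjusted p = 0.0319). That second call was kept only without wild type replicate 1 (adjusted p up to 0.114 otherwise), and its other probe sets had +0.09 and +0.11, with an adjusted p of 0.858 for the mean of all. Fam107a, an actin-associated protein gene enriched in astrocytes, rose by 0.32 (SE 0.06, limma adjusted p = 0.0221), kept only without wild type replicate 3 or L26 replicate 3 (adjusted p up to 0.0876).

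**Figure D4:**
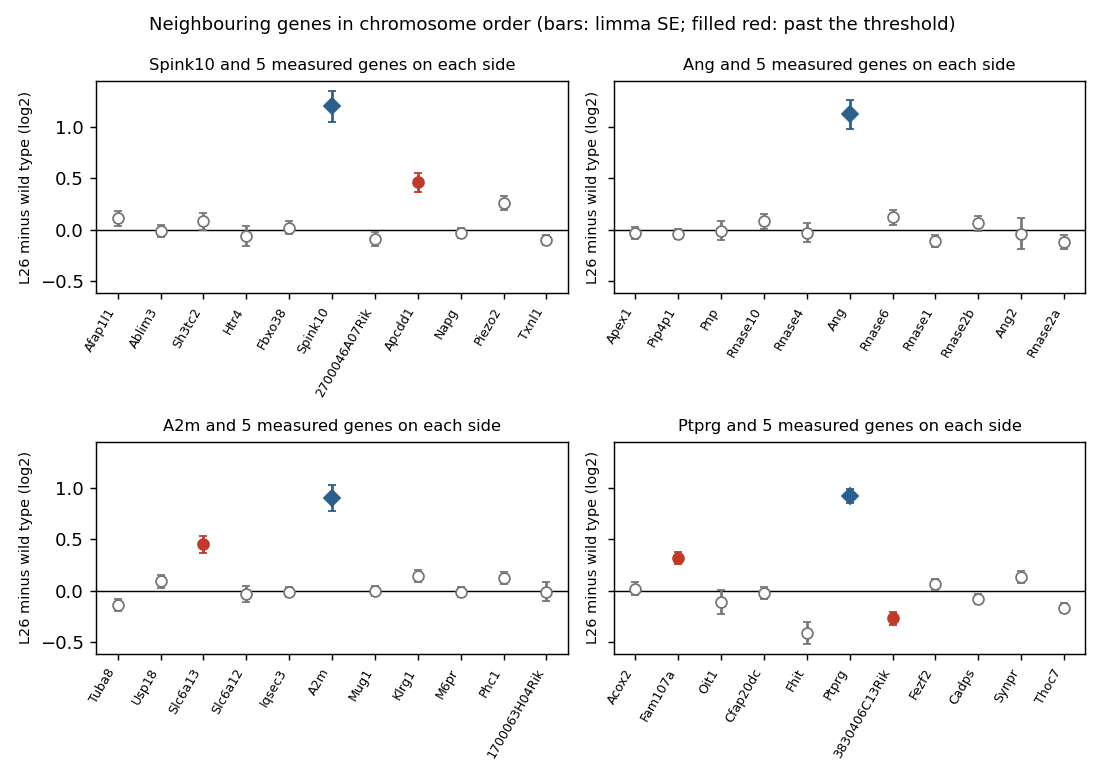
The 4 panels plot the difference of L26 minus wild type (log2, bars give the limma SE) for each gene (blue diamond, leading probe set) and its 5 measured neighbours on each side, ordered along the chromosome and evenly spaced, with calls in red. Of the 40 neighbours 4 are called, and all 40 lie between -0.41 and 0.46.

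The means of the endothelial, mural, oligodendrocyte, astrocyte and hippocampal neuron marker lists were higher in every L26 array than in any wild type array. Those of the tissue borders overlapped between the groups. In bulk tissue, more cells of a type and more RNA per cell cannot be told apart. Of 15 endothelial markers 5 rose and 0 fell, and their mean per array was 8.29 to 8.31 in wild type and 8.51 to 8.63 in L26. Cldn5, a tight junction gene, rose by 0.95 (SE 0.08, limma adjusted p = 0.000334) and Kdr, a receptor for VEGF, by 0.63 (SE 0.07, limma adjusted p = 0.0025). These 2 had the smallest p of the endothelial list, and 10 of its genes did not pass. Its differences ran from -0.28 to 0.95 with a median of 0.21, and 14 of 15 had a higher mean in L26. Mural cell markers rose in 4 of 10 cases, with means of 8.35 to 8.45 against 8.72 to 8.76, and oligodendrocyte markers in 12 of 17, with means of 10.77 to 10.86 against 11.02 to 11.22. Astrocyte means were 11.16 to 11.20 against 11.22 to 11.25, with 0 called higher and 1 lower of 15, and 4 at an unadjusted p under 0.05 with limma. Microglial means overlapped, at 9.25 to 9.34 and 9.29 to 9.38, with 4 higher and 1 lower of 14. Blood markers overlapped as well, from 5.95 to 6.08 and from 6.03 to 6.16, with 0 of 7 called and 1 at an unadjusted p under 0.05. Hippocampal neuron markers gave 4 higher and 1 lower of 17. Over all genes 2.63% were called higher and 2.57% lower. Of 37 marker genes called over all lists, 10 passed in every fit with 1 array left out. Among them were 3 of the 5 endothelial, 3 of the 5 hippocampal neuron and 2 of the 4 mural genes. So were 1 of the 12 oligodendrocyte and 0 of the 3 choroid plexus and ependymal genes. The mean differences were 0.27 for endothelial, 0.34 for mural and 0.32 for oligodendrocyte markers. They were smaller for hippocampal neuron (0.11) and astrocyte (0.04) markers. The border lists, whose arrays overlapped, had mean differences of 0.34 for choroid plexus and ependyma and 0.26 for leptomeninges. In those lists the mean was higher in L26 for 14 of 15 and 13 of 14 genes, beside 53.1% of all genes.

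A2m and the choroid plexus and ependymal markers ranked the arrays alike within each group, a pattern picked out after the values were seen. Choroid plexus and ependymal markers averaged 8.60, 9.11 and 9.15 in the wild type arrays and 9.37, 8.87 and 9.64 in the L26 arrays. Within both groups the arrays ranked in the same order for A2m as for this list, with L26 replicate 3 highest and wild type replicate 1 lowest of all 6 for both. The list overlapped between the groups. Spink10 shared the order of this list in wild type and not in L26. The order of A2m was not particular to these markers. The macroglobulin family list had it too, with means of 8.05, 8.10 and 8.12 in wild type and 8.14, 8.11 and 8.19 in L26, which also overlapped. Leptomeningeal markers averaged 8.52, 8.61 and 8.84 in wild type and 8.81, 8.86 and 9.09 in L26, also overlapping and also highest in L26 replicate 3, but with the order of L26 replicates 1 and 2 opposite to that of A2m. Of 15 choroid plexus and ependymal markers 3 rose and 0 fell, and of 14 leptomeningeal markers 2 rose and 0 fell. In the first list the smallest p belonged to Tmem212 (+0.69, SE 0.11, limma adjusted p = 0.0096) and Ccdc153 (+0.49, SE 0.08, limma adjusted p = 0.0125). That list pools choroid plexus with ependyma, and its counts and means do not tell them apart. No gene of the marker lists lay below the lower quartile of the arrays, apart from 3 blood markers. The part of these cell types in the values of A2m, Ang, Spink10 and Ptprg was not tested.

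**Figure D5:**
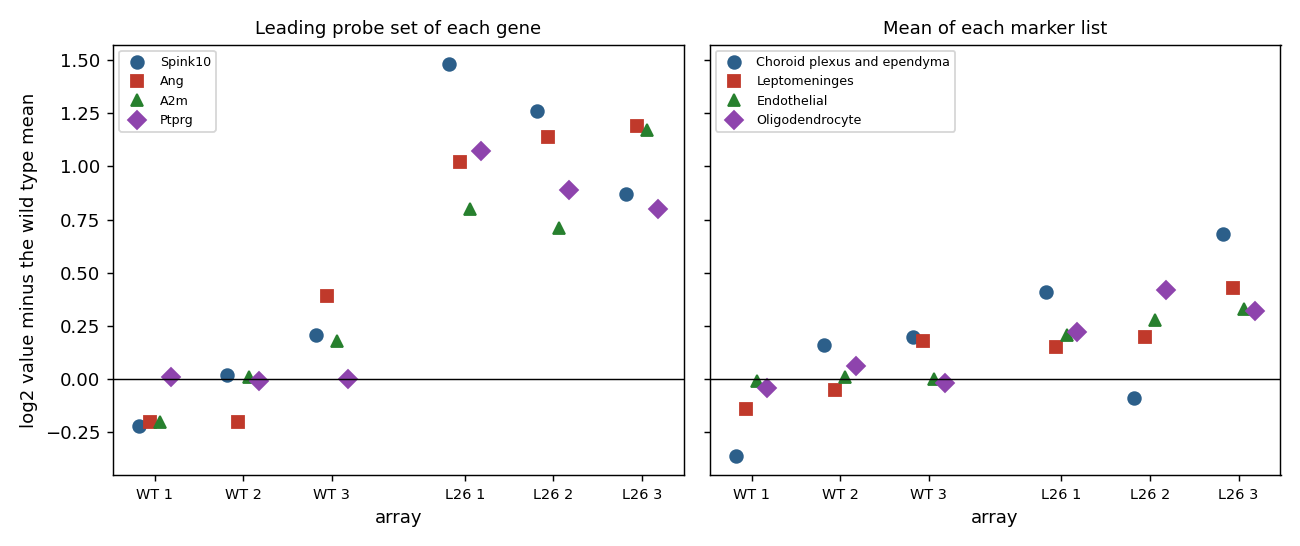
Left, the leading probe set of each gene, and right, the mean of 4 marker lists, as log2 values minus the wild type mean in each of the 6 arrays. All 4 leading probe sets lie at 0.71 or more in every L26 array, while the choroid plexus and ependymal list spans -0.36 to 0.20 in wild type and -0.09 to 0.68 in L26.

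The 4 genes did not share 1 order of arrays within L26. Spink10 and Ptprg 1429691_at were highest in L26 replicate 1 and lowest in replicate 3, and Ang 1438936_s_at and A2m were highest in replicate 3. Likeness was measured as the root mean square difference over the 6 arrays after subtraction of each probe set's wild type mean, as a description on the scale of log2 differences. Since only the wild type mean is subtracted, nearness largely restates a similar L26 difference, the value on which the 4 genes were picked. Among the 4 leading probe sets it ran from 0.23 between A2m and Ptprg to 0.375 between Spink10 and A2m.

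The probe sets nearest to Spink10 were Homer1 1436387_at (0.134), Mndal 1426906_at (0.148), Ssbp2 1429951_at (0.208), Neat1 1428083_at (0.214) and Ptprg 1429691_at (0.259). Homer1, a postsynaptic scaffold gene, read 8.89, 9.21 and 9.55 in wild type and 10.72, 10.69 and 9.90 in L26 on that probe set. Like Spink10, it was lowest in wild type replicate 1 and, among the L26 arrays, in replicate 3. Its 5 other probe sets had differences from -0.02 to 0.20, against 1.22 on this one.

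Nearest to Ang 1438936_s_at were Ssbp2 1429951_at (0.189), Col3a1 1427883_a_at (0.206), Rpgrip1 1421144_at (0.212), Iyd 1451547_at (0.218) and Camk2a 1443876_at (0.223). Nearest to A2m were Rpgrip1 1421144_at (0.118), Pisd-ps3 1434975_x_at (0.133), Rabif 1457969_at (0.164), Camk2a 1443876_at (0.167) and Chchd3 1431241_at (0.168). Rpgrip1 had a difference of 0.89 on this probe set and 0.01 to 0.03 on its 3 others. For Ptprg 1429691_at the nearest were Paip1 1425521_at (0.0957), Cap1 1417461_at (0.105), Camk2a 1443876_at (0.106), Uck2 1439740_s_at (0.107) and Prdm16 1429308_at (0.109). Camk2a, the gene of the abundant neuronal kinase CaMKII alpha, thus stood near 3 of the 4 genes on a probe set with a difference of 0.90, while its 5 other probe sets had 0.02 to 0.33. The other nearest genes varied in how far their remaining probe sets shared the difference. Pisd-ps3 had 0.63 to 2.44 on its others, Mndal 0.84, Cap1 0.75, Paip1 0.10 to 1.02, Uck2 0.10 to 0.60 and Prdm16 0.02 to 0.50. Neat1 had 0.13 on its other probe set, Col3a1 0.01, Chchd3 0.07 to 0.12, Rabif -0.44 to 0.03 and Ssbp2 -0.40 to -0.16, and Iyd has no other.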

How the data were processed

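The 6 arrays were compared as 3 L26 against 3 wild type samples, grouped by their titles. The table the authors deposited holds log2 values, and RMA and affy are named in the submitters' processing notes, without versions. In general RMA corrects background, normalizes by quantiles and summarizes probes by median polish, and it gives no detection calls. Precision is limited by the number of arrays. Of 45101 probe sets, 64 array controls were left out and 45037 tested without a filter on level, and every per-sample column was used. The platform annotation gave 34945 probe sets 1 symbol, 932 several and 9160 none. No probe set with several symbols named any of the 4 genes. Through Entrez identifiers 34741 were matched to the RefSeq gene table (GRCm38.p6), used for names and gene order, and promoter sequences are from RefSeq.

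The L26 and wild type arrays entered 1 linear model per probe set (limma 3.58.1, R 4.3.3, eBayes, both directions, Benjamini-Hochberg over all probe sets or all 18193 genes, threshold 0.05). Each gene was represented by its brightest probe set on average. SEs come from that fit, and values after ± are SDs. The code was tested on simulated data. The members and the lists were chosen with earlier results of these data known. Named genes are every probe set of the 4 genes, up to 4 genes past the threshold per related list with a few fixed partners, up to 2 per marker list, neighbours past the threshold with the direct neighbours, and the 5 nearest probe sets; Ang2, Ang3, Ang4 and Slc6a12 were added after their values were seen. Same-numbered arrays of the 2 groups had correlations of deviations of -0.038, -0.07 and 0.154. These values do not show that the numbers pair the samples, and with so few arrays they cannot exclude it. The labels do not say whether animals were pooled.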

Additional observations from a re-analysis of the deposited data

How the results depend on the processing

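The differences of all 9 probe sets moved by less than 1 SD (both groups combined) under every setting run, which is no measure of robustness. Leaving out a single array cannot move a difference by that much. The replicate block, the intensity trend and the removal of dim probe sets leave a difference unchanged by their construction. Without a single array they ran from 1.06 to 1.37 for Spink10, 0.76 to 0.99 for A2m, 1.02 to 1.32, 0.82 to 1.0 and -0.10 to 0.03 for Ang 1438936_s_at, 1438937_x_at and 1450717_at, and 0.85 to 0.98, 0.26 to 0.37, 0.22 to 0.37 and -0.18 to 0.00 for Ptprg 1429691_at, 1450122_at, 1434360_s_at and 1456070_at. A repeated quantile normalization, centred arrays, the replicate block, an intensity trend with a robust prior and, for the 7 brighter probe sets, removal of the dimmest 40% left them between -0.12 and 1.20. The counts over all genes depended more on the setting. With the replicate number as a block 301 genes were higher (478 without it), and with the intensity trend 701 were lower (467). With 1 array left out, 401 to 696 genes passed (180 to 358 higher, 221 to 376 lower), with 401, 421, 624, 520 and 626 without L26 replicate 2, L26 replicate 3 and wild type replicates 1, 2 and 3, and 810 to 1430 probe sets (356 to 787 higher, 454 to 661 lower). Among related genes, with the count under the settings used throughout in brackets, contactins gave 4 calls with centred arrays and 4 without the dimmest probe sets (2), and Kazal genes 0 with the mean of all probe sets (1). The macroglobulin family gave 0 with centred arrays, the intensity trend, the mean of all probe sets, a repeated quantile normalization or the block (1). Other protease inhibitors gave 6 with the trend and 5 with the block (3). Phosphatases gave 3 with centred arrays, 3 without the dimmest probe sets, 3 with the trend, 2 after a repeated quantile normalization, 0 with the mean of all probe sets and 0 with the block (1). With 1 array left out these lists had 1 to 3 calls for the acute phase, 0 to 1 for macroglobulins, 1 to 4 for protease inhibitors and 0 to 1 for phosphatases. The cause of these changes was not tested. The ribonuclease list had 0 calls under every setting. Of the 11 related genes past the threshold, 9 also passed with the block and 5 in every fit with 1 array left out. The block ended 3 of the 4 calls among chromosomal neighbours, with adjusted p of 0.065 for Apcdd1, 0.0656 for Fam107a and 0.0647 for 3830406C13Rik.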
